A study of Homo sapiens with 6 samples.

Results

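Ribosome biogenesis factors are the nuclear and nucleolar proteins that make ribosomes without staying in them, and 40 genes for such factors were followed here, listed by symbol and found by gene identifier among 18278 genes measured. All 40 were present and all passed the filter on low values. They were divided by step into 7 genes of RNA polymerase I transcription, 8 of small nucleolar ribonucleoproteins (snoRNPs), 9 of small subunit assembly, 12 of large subunit assembly and 4 for abundant nucleolar proteins that act at several steps. The samples are of Toledo, an established human line from a diffuse large B cell lymphoma that grows in suspension. One group of 3 samples had 6 days of TP-064 at 5 uM, an inhibitor of the protein arginine methyltransferase CARM1. The other group of 3 had DMSO, the solvent, for the same time. The study concerns lymphomas with mutated CREBBP or EP300 acetyltransferase genes. The labels describe 1 cell line and do not say whether replicates were separate cultures, so p-values measure spread among 3 samples that could be technical repeats.

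Ribosome synthesis begins in the nucleolus, where RNA polymerase I copies the ribosomal DNA into a long precursor. SnoRNPs then modify that RNA: those of the box C/D class methylate riboses and those of the box H/ACA class convert uridine to pseudouridine. Large assemblies of proteins fold, cut and package the precursor into the small and the large subunit, which are exported to the cytoplasm. Growing lymphoid cells carry out much of this work, and many of the genes are known as targets of the transcription factor MYC.

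The recovered reads came to between 41354131 and 48360867 per library. Pearson correlations of log2 values over the genes tested were 0.989 to 0.995 between TP-064 replicates and at least 0.995 between DMSO replicates. Both TP-064 pairs that include replicate 3 were the lowest, at 0.989 and 0.990. All 8 B cell markers were in the table, and their summed level was 112780 to 120390 normalized read counts in TP-064 cells against 116680 to 118710 in DMSO cells. No T cell or erythroid marker was in the table. The myeloid markers present (3 of 5) summed to at most 99.5 in TP-064 cells and at most 65.6 in DMSO cells, and the epithelial and stromal ones (3 of 5) to at most 164 in TP-064 cells and at most 336 in DMSO cells; the part of other cells in the results was not tested. In bulk RNA, a lower level in every cell and a larger share of cells with a low level cannot be told apart.

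Transcripts for ribosome biogenesis factors were lower in TP-064 cells than in DMSO cells. Of the 40 genes, 34 fell and 0 rose at a limma adjusted p under 0.05, and 6 did not pass. The reading of that count needs the background: 65.1% of the 16048 genes tested passed in either direction, 33.3% as lower and 31.9% as higher. Among protein-coding genes with means in the same range as these 40 (306 to 45070 normalized read counts), 44.3% were lower. That range is wide, and the median level of those genes was 2144, against 5370 for the 40, so levels were not matched. The median log2 fold change was -0.42 over the 40 genes and 0.01 over all genes tested. Most of the falls were moderate, and 2 genes (GAR1 and NCL) fell by 2-fold or more, against 6.56% of all genes. The 3 TP-064 samples lay below all 3 DMSO samples for 35 of the 40 genes, against 35.2% of all genes. Taken one at a time against the DMSO mean, TP-064 replicates 1, 2 and 3 had medians of -0.44, -0.39 and -0.46 over the 40 genes. With scaling to library totals, the median of all genes moved to 0.13 and the median of the 40 to -0.29. Such scaling shifts all genes by nearly the same amount. The distance between these medians (-0.42) therefore could hardly change and is no separate check. When a change had to exceed 1.2-fold, 25 of the 34 falls still passed. Over all 16048 genes tested, 5592 passed that test in either direction, against 10449 in the main test. The share of all genes lower at that setting was not counted. The 9 falls that did not pass were BOP1, NOC2L, NOL6, PES1, POLR1B, RRP9, TAF1D, WDR12 and WDR43.

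**Figure D1:**
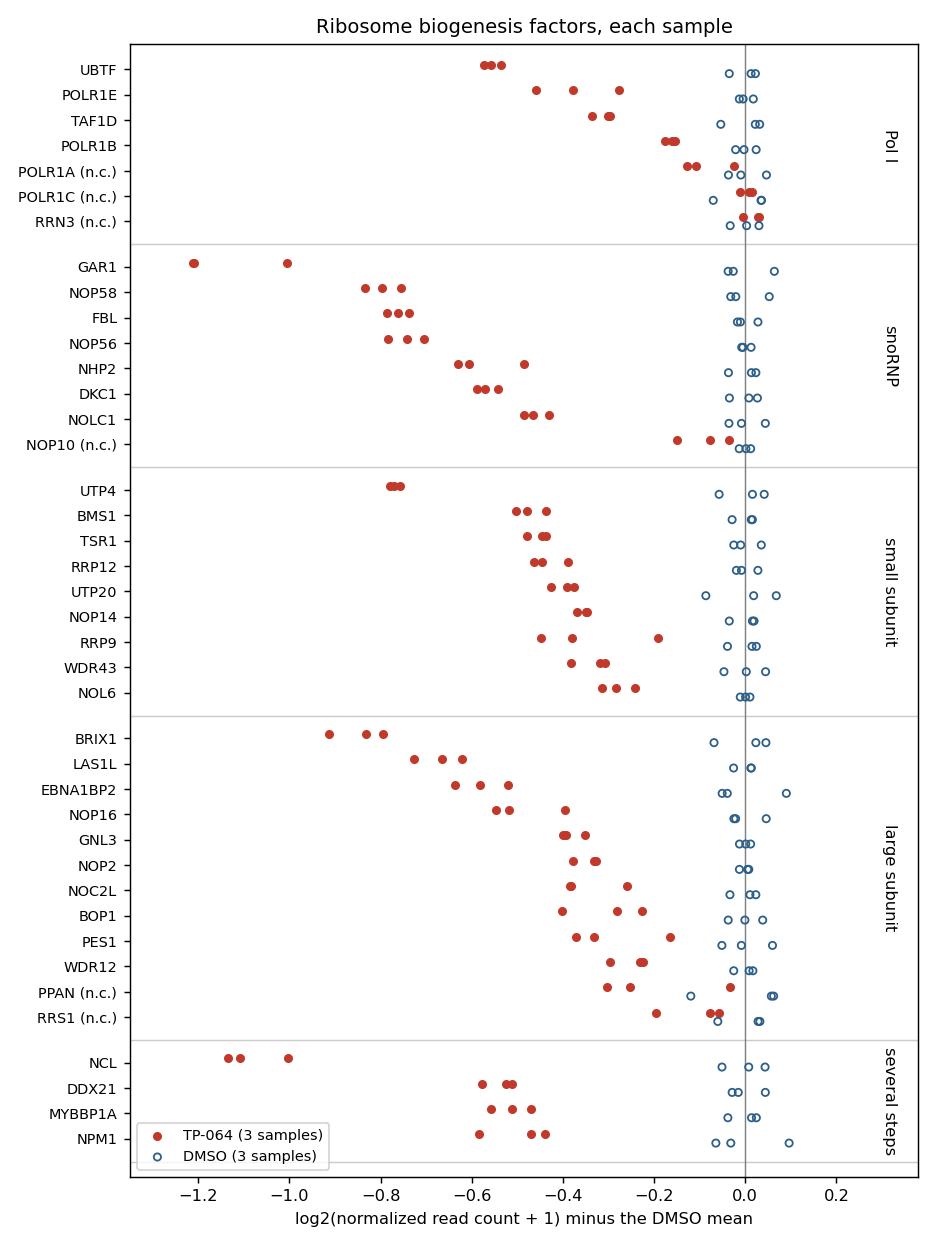
Each row is 1 gene, and each point is 1 sample on a scale of log2(normalized read count + 1) minus the mean of the 3 DMSO samples; filled points are TP-064, open points DMSO, and n.c. marks genes not called. The TP-064 points lie left of all DMSO points for 35 of 40 genes, farthest for GAR1 and NCL, and mix with them for POLR1A, POLR1C, RRN3, PPAN and RRS1.

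Promoter sequences are shown because 34 of the 40 genes fell and because many are known to carry the E-box CACGTG, the hexamer bound by MYC and its partner MAX. RefSeq promoter windows on GRCh38.p14, from 250 bases before to 50 bases after a transcript start, were held for 34 of the 40 genes; BOP1, NOLC1, NOP58, POLR1E, RRP12 and RRS1 had none. The stretches below end at the base before a start, run 5′ to 3′ on the gene's strand, and print CACGTG and the ETS-type motif CCGGAAG (or its reverse complement CTTCCGG) in capitals. UTP4 and UTP20 are genes that fell and hold an E-box just before the start. DDX21 also fell and holds an E-box just before 1 of its 2 starts, while the window of the other start has none. NCL and NOP56 are strongly reduced genes without one in the window. NOP10 holds a pair of E-boxes but did not pass the test.
UTP4 (chr16:69132549-69132648, plus strand): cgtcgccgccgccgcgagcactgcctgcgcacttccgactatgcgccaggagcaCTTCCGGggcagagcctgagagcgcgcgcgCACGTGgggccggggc
DDX21 (chr10:68956547-68956646, plus strand, 1 of 2 starts): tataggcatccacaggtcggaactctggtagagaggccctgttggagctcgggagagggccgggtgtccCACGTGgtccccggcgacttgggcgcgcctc
UTP20 (chr12:101280005-101280104, plus strand): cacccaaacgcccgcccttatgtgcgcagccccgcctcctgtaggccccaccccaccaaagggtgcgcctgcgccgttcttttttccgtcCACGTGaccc
NCL (chr2:231464485-231464584, minus strand): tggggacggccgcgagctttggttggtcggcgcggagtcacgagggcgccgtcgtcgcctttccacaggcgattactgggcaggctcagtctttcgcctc
NOP56 (chr20:2652532-2652631, plus strand): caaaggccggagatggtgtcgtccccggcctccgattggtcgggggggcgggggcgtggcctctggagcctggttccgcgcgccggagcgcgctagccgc
NOP10 (chr15:34343137-34343336, minus strand): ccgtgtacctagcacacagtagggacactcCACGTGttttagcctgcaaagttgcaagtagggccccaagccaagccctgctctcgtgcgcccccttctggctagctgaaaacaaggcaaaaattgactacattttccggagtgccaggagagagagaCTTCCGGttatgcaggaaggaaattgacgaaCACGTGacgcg

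The E-box begins 16 bases before the start shown in UTP4, 31 in DDX21, 10 in UTP20, and 170 and 11 in NOP10. A search for the hexamer, which reads the same on both strands, found it in a window of 15 of the 34 genes (44.1%), against 1278 of the 10205 tested genes with a window (12.5%). CCGGAAG, searched on both strands, was in 17 of the 34 and in 22.5% of the tested genes. TGACGTCA, the full cyclic AMP response element bound by CREB, was in 0 of the 34 and in 3.68% of the tested genes. In the windows of the 34 genes, 2 pairs of matches overlapped. The median log2 fold change was -0.38 for the 15 genes with an E-box, of which 14 fell, and -0.47 for the 19 without, of which 15 fell. A match is a run of letters in these windows and does not show that a factor binds there. The mRNA of MYC itself had 15773, 16424 and 14740 normalized read counts in TP-064 cells and 14364, 14919 and 14656 in DMSO cells. These ranges overlapped, and the change of 0.09 on the log2 scale did not pass (limma adjusted p = 0.0519). MYC was not followed under the other settings.

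**Figure D2:**
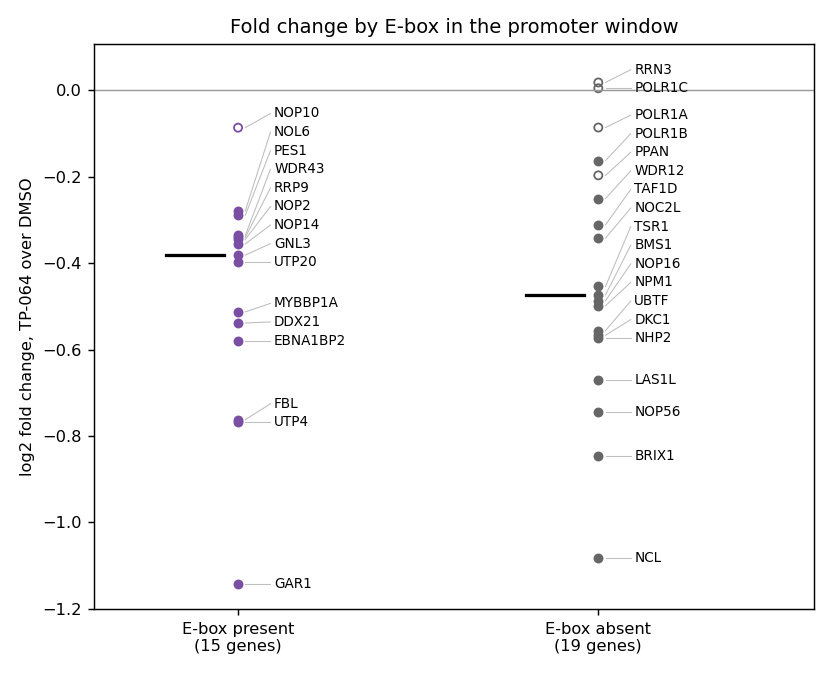
Log2 fold change (TP-064 over DMSO) of the 34 genes with a RefSeq promoter window, split by the presence of the E-box hexamer in any window of the gene; open points were not called and the bars are medians. The 15 genes with the motif (median -0.38) and the 19 without it (median -0.47) cover overlapping ranges.

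The 7 RNA polymerase I genes among the 40 had a median log2 fold change of -0.16, the nearest to 0 of the 5 groups of the 40, with 4 lower and 3 not called. This order holds for these 7 genes only, since 13 other genes of the same step had a median of -0.47. UBTF, which bends the ribosomal DNA promoter and keeps active repeats open, had 10964, 11245 and 11071 normalized read counts in TP-064 cells, against 15917, 16563 and 16454 in DMSO cells. All TP-064 samples were well below all DMSO samples, with a change of -0.56 on the log2 scale (SE 0.03, limma adjusted p = 9.72e-10). POLR1E, a peripheral subunit of the polymerase, read 2912, 3304 and 3082 in TP-064 cells and 3991, 4053 and 3968 in DMSO cells, a change of -0.37 (SE 0.04, limma adjusted p = 2.75e-06). TAF1D, a subunit of the promoter selectivity factor, read 6632, 6801 and 6821 in TP-064 cells and 8564, 8507 and 8072 in DMSO cells, a change of -0.31 (SE 0.04, limma adjusted p = 1.51e-06). POLR1B, which forms the catalytic core together with POLR1A, fell by 0.16 on the log2 scale to 5410 ± 43.8 in TP-064 cells, against 6058 ± 95.1 in DMSO cells (SD, n = 3 each; limma adjusted p = 0.000457). With scaling to library totals POLR1B no longer passed, at -0.04 (limma adjusted p = 0.295).

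The largest catalytic subunit, POLR1A, did not pass, at 6278, 5933 and 5851 normalized read counts in TP-064 cells and 6600, 6348 and 6229 in DMSO cells (limma adjusted p = 0.0580). One TP-064 sample lay inside the DMSO range, and POLR1A passed as lower without TP-064 replicate 1 (limma adjusted p = 0.0171) and with a filter of 1 CPM (limma adjusted p = 0.0461). RRN3, the factor that carries the polymerase to the promoter, read 2979, 3055 and 3051 in TP-064 cells and 2997, 3054 and 2923 in DMSO cells (limma adjusted p = 0.694). POLR1C, a subunit shared with RNA polymerase III, read 2301, 2313 and 2271 in TP-064 cells and 2345, 2179 and 2344 in DMSO cells (limma adjusted p = 0.937). For both genes the groups overlapped. With scaling to library totals RRN3 and POLR1C passed as higher, at log2 fold changes of 0.14 and 0.13, against a median of 0.13 over all genes under that scaling. RRN3 has 2 pseudogenes annotated under its symbol that may share reads with it.

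The 8 snoRNP genes had the lowest median among the 5 groups of the 40, -0.66, with 7 lower and 1 not called; 14 other snoRNP genes had a median of -0.32. The largest fall of all 40 genes was in GAR1, a core protein of box H/ACA snoRNPs. Its normalized read counts were 327, 326 and 377 in TP-064 cells, against 743, 791 and 738 in DMSO cells. The groups are far apart, and the TP-064 mean was 45.3% of the DMSO mean (log2 fold change -1.14, SE 0.07, limma adjusted p = 1.97e-09). NOP58, a scaffold of box C/D snoRNPs, read 2344, 2406 and 2476 in TP-064 cells and 4121, 4336 and 4089 in DMSO cells, a change of -0.80 (SE 0.04, limma adjusted p = 1.19e-10). FBL, the fibrillarin that methylates ribose, read 5539, 5629 and 5724 in TP-064 cells and 9437, 9737 and 9480 in DMSO cells, a change of -0.76 (SE 0.03, limma adjusted p = 2.75e-11). NOP56, the partner of NOP58, read 13754, 14127 and 13364 in TP-064 cells and 22934, 23219 and 22890 in DMSO cells, a change of -0.74. In each of these box C/D genes the TP-064 samples were tightly grouped, and the TP-064 means of the genes were 57.6% to 59.7% of their DMSO means.

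Of the other box H/ACA proteins, DKC1, the dyskerin that makes pseudouridine, changed by -0.57 to 12090 ± 191 in TP-064 cells, against 17911 ± 390 in DMSO cells (SD, n = 3 each). NHP2, an RNA-binding core protein, also changed by -0.57, to 3579 ± 194 in TP-064 cells, against 5324 ± 119 in DMSO cells. NOLC1, a chaperone that shuttles snoRNPs between nucleolus and Cajal bodies, changed by -0.46, to 10192 ± 197 in TP-064 cells, against 14023 ± 396 in DMSO cells. NOP10, the smallest of the core proteins, did not pass, at 1936, 1993 and 1841 in TP-064 cells and 2059, 2023 and 2044 in DMSO cells (log2 fold change -0.09, limma adjusted p = 0.0818). Its TP-064 samples were all below its DMSO samples, though by little. NOP10 passed as lower without TP-064 replicate 2 (-0.11, limma adjusted p = 0.0318) and stood at 0.04 with scaling to library totals.

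To see how partners of a complex moved relative to each other, ratios between partner transcripts were taken in each sample, per kilobase of annotated exon. NOP10 over GAR1 was 21.9, 22.6 and 18.1 in TP-064 cells and 10.2, 9.44 and 10.2 in DMSO cells. DKC1 over NOP10 was 0.811, 0.813 and 0.863 in TP-064 cells and 1.12, 1.19 and 1.16 in DMSO cells. DKC1 over GAR1 averaged 17.2 ± 1.45 in TP-064 cells and 11.5 ± 0.338 in DMSO cells (SD, n = 3 each). These 3 ratios, and those of NHP2 over NOP10 and over GAR1, did not overlap between the groups. The ratios are given as a description: 3 against 3 samples allow no two-sided exact permutation p below 0.1, which each of these 5 had, or 0.24 adjusted over the 12 ratios compared. DKC1 over NHP2 averaged 1.22 ± 0.0460 in TP-064 cells and 1.21 ± 0.0440 in DMSO cells, with overlapping samples. Ratios among NOP56, NOP58 and FBL, and among PES1, BOP1 and WDR12 of large subunit assembly, overlapped as well.

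**Figure D3:**
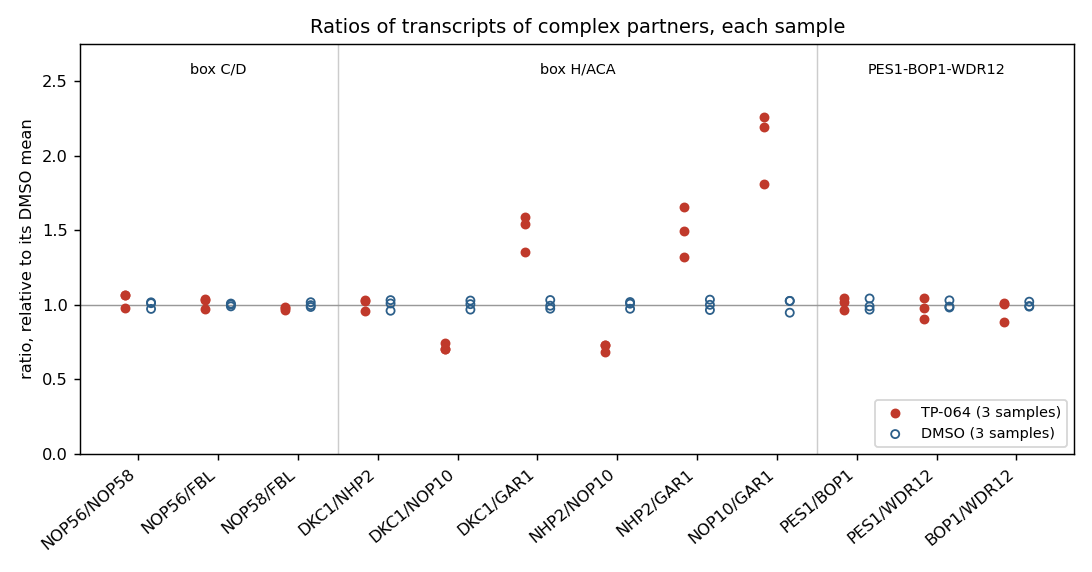
Ratios of transcript levels per kilobase between partners of a complex, in each sample, divided by the mean ratio of the 3 DMSO samples, on a linear axis from 0; filled points are TP-064 and open points DMSO. Box H/ACA ratios that contain GAR1 or NOP10 separate the groups (NOP10 over GAR1 averaged 20.8 in TP-064 cells and 9.97 in DMSO cells), while the other ratios overlap.

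All 9 genes of small subunit assembly fell, with a median of -0.40 and a range of -0.77 to -0.28. UTP4, a subunit of the complex that first joins the nascent precursor, read 1160, 1143 and 1150 normalized read counts in TP-064 cells and 1884, 2018 and 1982 in DMSO cells. The groups are far apart, and its change was -0.77 (SE 0.04, limma adjusted p = 6.39e-10). BMS1, a GTPase of the small subunit processome, read 4297, 4104 and 4173 in TP-064 cells and 5882, 5872 and 5704 in DMSO cells, a change of -0.47 (SE 0.03, limma adjusted p = 1.28e-08). TSR1, a GTPase-like protein of late pre-40S particles, read 2613, 2597 and 2541 in TP-064 cells and 3478, 3627 and 3515 in DMSO cells, a change of -0.45 (SE 0.04, limma adjusted p = 3.59e-08). RRP12 and UTP20, large repeat proteins, changed by -0.43 and -0.40. NOP14, a scaffold of the same processome, changed by -0.36, RRP9, which binds the U3 snoRNA, by -0.34, and WDR43, a partner of UTP4, by -0.34. NOL6 had the smallest change, -0.28, at 6489 ± 165 in TP-064 cells and 7873 ± 58.0 in DMSO cells (SD, n = 3 each). BMS1 has 15 pseudogenes annotated under its symbol, so its level is uncertain.

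Among the 12 genes of large subunit assembly, 10 fell and 2 did not pass, with a median of -0.34. BRIX1, which acts in early particles, had 2859, 3105 and 3028 normalized read counts in TP-064 cells, against 5139, 5561 and 5477 in DMSO cells, a change of -0.85 (SE 0.04, limma adjusted p = 1.50e-10). Exons of RAD1 on the opposite strand cover 9.62% of its exon length, and RAD1 was itself lower by a similar amount (-0.83). LAS1L, the endonuclease that opens an internal spacer of the precursor, read 5048, 5205 and 4836 in TP-064 cells and 7863, 8072 and 8077 in DMSO cells, a change of -0.67 (SE 0.04, limma adjusted p = 3.64e-10). EBNA1BP2, an assembly factor found first as a partner of a viral protein, read 2874, 3116 and 2986 in TP-064 cells and 4314, 4756 and 4347 in DMSO cells, a change of -0.58 (SE 0.04, limma adjusted p = 2.44e-08). In all 3 genes the groups were clearly apart.

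The remaining falls in this step were smaller. NOP16 changed by -0.49, GNL3, the nucleolar GTPase nucleostemin, by -0.38, NOP2, an RNA cytosine methyltransferase, by -0.35, and NOC2L by -0.34. PES1, BOP1 and WDR12, which form the PeBoW complex, changed by -0.29, -0.30 and -0.25. PPAN did not pass, at 274, 319 and 264 normalized read counts in TP-064 cells and 339, 300 and 341 in DMSO cells (limma adjusted p = 0.0704). It passed as lower without TP-064 replicate 2 (-0.28, limma adjusted p = 0.0151) or without DMSO replicate 2 (-0.26, limma adjusted p = 0.0379). RRS1, which helps to bring the particle of the smallest ribosomal RNA into the large subunit, did not pass either, at 1047, 1034 and 953 in TP-064 cells and 1112, 1046 and 1115 in DMSO cells (limma adjusted p = 0.0816), and its log2 fold change of -0.11 was 0.01 with scaling to library totals.

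The 4 abundant proteins that act at several steps all fell, with a median of -0.53. NCL, the nucleolin that binds nascent precursor RNA, had 20508, 20896 and 22460 normalized read counts in TP-064 cells and 43470, 46412 and 45273 in DMSO cells. Its TP-064 mean was 47.3% of the DMSO mean (log2 fold change -1.08, SE 0.04, limma adjusted p = 6.07e-12). DDX21, an RNA helicase that links polymerase I with processing, read 16983, 17627 and 17776 in TP-064 cells and 24861, 26148 and 25094 in DMSO cells, a change of -0.54 (SE 0.04, limma adjusted p = 3.17e-09). MYBBP1A, which binds MYB and acts on polymerase I transcription, read 2716, 2798 and 2631 in TP-064 cells and 3773, 3911 and 3940 in DMSO cells, a change of -0.51 (SE 0.04, limma adjusted p = 1.50e-08). NPM1, the chaperone nucleophosmin, averaged 37355 ± 1947 in TP-064 cells and 52792 ± 3150 in DMSO cells (SD, n = 3 each), a change of -0.50. NPM1 has 45 pseudogenes annotated under its symbol, so its counts are uncertain.

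Per kilobase of annotated exon, NPM1 had the highest level of the 40 genes in both groups, at 9758 normalized read counts in TP-064 cells and 13790 in DMSO cells. The next in TP-064 cells were BOP1 at 4156, GNL3 at 3755, DDX21 at 3479, NOP10 at 3472 and NCL at 3072 per kilobase. In DMSO cells the order was another, with NCL at 6502, BOP1 at 5123, DDX21 at 5053 and GNL3 at 4892. PPAN was the lowest, at 110.5 in TP-064 cells and 126.5 in DMSO cells. The exon length joins all annotated isoforms and understates genes with long rare ones, such as WDR12 at 9.10 kilobases.

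Some features of the loci bear on how these reads were counted. Genes of snoRNAs lie inside 10 of the 40 genes on the same strand, 36 in all, with 8 in TAF1D, 6 in GNL3, 5 in NOP56, 4 in NOP58 and 3 each in NCL and WDR43. The median log2 fold change was -0.42 both for these 10 hosts and for the other 30. The library kit keeps the strand, but whether counting used it is not given in sources used here. Exons of genes on the opposite strand cover 17.1% to 27.4% of the exon length of NHP2, TSR1, NOP16, POLR1C and NOP14, so reads of these genes and of their partners may not be told apart. For NOP14 the partner, NOP14-AS1, had 417, 469 and 542 normalized read counts in TP-064 cells against 237, 214 and 265 in DMSO cells, opposite to the fall of NOP14 itself to 6896 ± 59.9 in TP-064 cells against 8826 ± 185 in DMSO cells (SD, n = 3 each). Of the 28 genes with no such overlap, 23 fell, with a median of -0.42. Exons on the same strand that belong to other annotated genes cover 59.8% of PPAN, among them a readthrough gene, and 54.4% of NOP2, so their levels are uncertain. Pseudogenes are also annotated under the symbols of NOP56 (3), NCL, NHP2, PES1 and NOC2L (2 each) and BRIX1 (1). Like those of RRN3, BMS1 and NPM1, they may share reads with these genes. In GENCODE release 29 (GRCh38), NCL lies on the minus strand of chromosome 2 from 231453531 to 231483641, and GAR1 on the plus strand of chromosome 4 from 109815510 to 109824740. UBTF lies on the minus strand of chromosome 17 from 44205033 to 44221626, UTP4 on the plus strand of chromosome 16 from 69131291 to 69231130, and BRIX1 on the plus strand of chromosome 5 from 34915376 to 34925996.

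Other genes of ribosome synthesis were taken from 5 lists that do not contain these 40. Of their 151 tested genes, 122 fell, 7 rose and 22 did not pass, with a median of -0.29, against 33.3% lower among all genes tested. The other polymerase I genes had 10 of 13 lower and 1 higher (median -0.47). TCOF1, the treacle protein that holds UBTF and the polymerase at the nucleolar centre, changed by -0.73 to 7913 ± 141 in TP-064 cells, against 13104 ± 247 in DMSO cells, and CD3EAP, another polymerase subunit, changed by -0.61. TAF1C, of the same selectivity factor as TAF1D, rose by 0.43. Other snoRNP genes had 12 of 14 lower and 0 higher (median -0.32); SNU13, the protein that seeds box C/D assembly, changed by -0.47 and RUVBL2, an ATPase of the assembly chaperone, by -0.46.

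Of 48 other small subunit genes, 40 fell and 1 rose (median -0.27). LTV1 and NOC4L changed by -0.58 and -0.53, and KRR1 rose by 0.11. Of 50 other large subunit genes, 43 fell and 4 rose (median -0.28). MRTO4, a placeholder for a ribosomal stalk protein, changed by -0.64 and MAK16 by -0.62. The largest rise was in SBDS, which helps to release an anti-association factor from late large subunits, at 5577 ± 147 in TP-064 cells and 2968 ± 125 in DMSO cells (SD, n = 3 each), a change of 0.91 on the log2 scale (SE 0.04, limma adjusted p = 3.03e-11). The other rises were NOP53 at 0.45 and, named after their values were seen, DDX54 at 0.27 and ZNF622 at 0.24. Among 26 tested genes of the RNA exosome, RNase MRP and related nucleases, 17 fell and 1 rose (median -0.33). EXOSC8, a ring subunit of the exosome, fell to 1024 ± 87.8 in TP-064 cells, against 2173 ± 56.3 in DMSO cells (-1.09), and POP7, of RNase MRP, changed by -0.88, while POP5, also of RNase MRP, rose by 0.18.

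**Figure D4:**
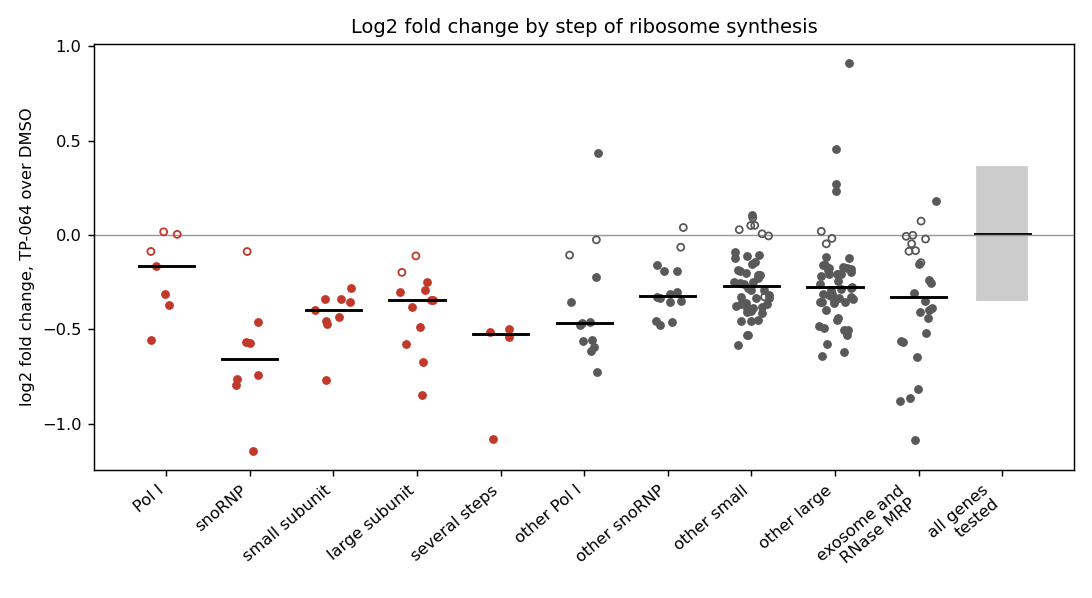
Log2 fold change (TP-064 over DMSO) of each gene by step, for the 40 genes in red and for the other lists in grey; filled points passed the test, open points did not, and bars are medians. The shaded box spans the quartiles of all 16048 genes tested; the snoRNP genes have the lowest median (-0.66) and the polymerase I genes the highest (-0.16) of the 5 red groups.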

How the data were processed

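Polyadenylated RNA of 6 samples was sequenced from stranded libraries, per the labels' protocols. The authors deposited 1 table of signal values, gene counts divided by a size factor per sample. TopHat2 2.0.10, HTSeq 0.6.0, DESeq 1.18.0 and hg38 are named in the submitters' processing notes; the annotation release and strand setting are not given in sources used here. All values in every column were whole multiples of 1 step (tolerance 0.001), which gave recovered reads; for replicate 2 of each group the step is close to 1 and the recovery rests on unrounded decimals. Called genes numbered 10562 with edgeR on those reads.

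The main test was limma 3.58.1 (R 4.3.3, trend) on log2(value + 1) over 16048 genes with a mean of at least 10, with 4 residual degrees of freedom, Benjamini-Hochberg adjustment over all genes and a two-sided threshold of 0.05. Each log2 fold change is the TP-064 mean minus the DMSO mean on this scale, which understates low genes. The script was tested on simulated data with far fewer changed genes, and with larger changes than most of the 40 genes had. That test does not cover changes as small as most of these. Symbols matched GENCODE release 29 for 18214 of 18278 identifiers. All 40 genes are named; by rule, full statistics were given per step for the 3 largest falls and values for every gene not called, and NOP56, POLR1B and others were given values beyond it after these were seen. Per other list, named genes are up to 2 of the largest falls and rises with a mean of at least 50. Genes and lists were chosen with earlier results of these data known. Alternatives used edgeR 4.0.16 and DESeq2 1.42.0 on recovered reads, other scalings, filters and pseudocounts, a replicate block and leaving out each replicate. Replicates differed by more than sampling noise (chi-square per degree of freedom 3.21 to 8.10).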

Additional observations from a re-analysis of the deposited data

How the results depend on the processing

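Across 17 alternative settings, 25 of the 40 genes kept their direction and their side of the threshold in every one. The number of the 40 genes called lower was 33 with scaling to library totals, 25 when a change had to exceed 1.2-fold, and 34 to 36 in the rest, including 34 with edgeR and 34 with DESeq2 on recovered reads; 0 were called higher except for 2 (POLR1C and RRN3) with scaling to library totals. The median log2 fold change of the 40 genes was -0.29 under that scaling and -0.44 to -0.39 in the other settings that change it. Calls over all genes numbered 10449, and 5592 against a change of 1.2-fold. Of the genes not called, NOP10 (0.0358), POLR1A (0.0361) and RRS1 (0.0125) were above 0 with scaling to library totals, which raises all genes alike (their median is 0.13 there, against 0.01 with the deposited scaling). POLR1C ranged from -0.0310 to 0.0220 when 1 replicate was left out, below 0 without TP-064 replicate 2 or DMSO replicate 2; the cause was not tested. Without TP-064 replicate 3, 34 were lower. Same-numbered samples did not deviate together (correlations of -0.09, 0.07 and -0.08). Differently numbered samples had correlations from -0.115 to 0.146. With so few samples these values show no pairing but cannot exclude it. The replicate block gave 35 lower of 40 (POLR1A added, limma adjusted p = 0.0288) and 10491 calls over all genes. With 3 samples a group, precision is limited.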
